A study of Mus musculus with 11 samples.

Results

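miR-320, miR-484, miR-1839 and miR-1224 are mouse miRNAs described as independent of Drosha, and they were taken as every row of the small RNA tables that carries 1 of these 4 names, on any arm or none. This gave 7 mature miRNAs of 1096 listed, which are miR-484, both arms of miR-320, both arms of miR-1839 and both arms of miR-1224. The study knocked down Mov10, which encodes an RNA helicase that associates with Argonaute proteins, in spermatogonial progenitor cells (SPCs), and asked how miRNA levels responded. Small RNA was sequenced from 1 library of control SPCs, which received the empty shRNA vector, and 1 library of SPCs that received a Mov10 shRNA by lentivirus. Both libraries are labelled as testis cells of strain C57BL/6 at postnatal day 6, and the study's methods name a mixed B6;129S background carrying a Rosa26 allele for the cultured cells, taken from pups of that age or slightly older. The cells were Thy1-selected and grown on an inactivated STO fibroblast layer, so feeder RNA can be present in both libraries. Mov10 mRNA was not analysed here, so the knockdown itself was not checked in these libraries.

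For most miRNAs, Drosha first frees a hairpin from the primary transcript, and Dicer then cuts this hairpin. A few hairpins reach Dicer without Drosha. The hairpins of miR-320 and miR-484 are described as capped, with a 5′ end made where transcription starts. A mirtron such as miR-1224 is a short intron released by splicing, and miR-1839 comes from a small nucleolar-type RNA. These miRNAs are used as a reference for steps of the pathway that lie after Drosha.

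The control library held 9628835 reads on miRNAs and the Mov10 knockdown library 2794593. Levels are given as TPM, the reads per 1000000 of each library's total, without length correction, so 1 read equals 0.0951 TPM in the control and 0.313 TPM in the knockdown. A level of 3 reads, used as the floor, equals 0.285 TPM and 0.939 TPM. Each group has 1 deposited library, so there are no replicate values. The study's methods mention triplicate samples, and whether a library pools them is not given in the sources used here. The 95% intervals below (exact Poisson for levels, exact conditional binomial for ratios) cover counting error only and compare 2 libraries, not 2 conditions. All 7 miRNAs had at least 1 read in both libraries, and 4 of them passed 1.5 TPM, the same 4 in each library.

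The first question was whether these miRNAs were lower in Mov10 knockdown vs control SPCs, as many others were. None of the 4 miRNAs above 1.5 TPM was reduced by more than 1.5-fold and 1, miR-1839-3p, was raised, a call that was lost at a fold of 2 or a minimum of 10 TPM. Across the 607 miRNAs above 1.5 TPM in the higher library, 252 (41.5%) were reduced and 96 (15.8%) were raised by the same rule. The mature miRNAs miR-320-3p and miR-484, from capped hairpins, were lower and stood close to the 1.5-fold limit. The major arm of miR-1839 was at the same level in both libraries, and the arms of the mirtron were too rare to compare. With 4 miRNAs, these counts say little against the background shares.

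Among the miRNAs from capped hairpins, miR-320-3p was the most abundant of the 7. Control SPCs gave 5614 reads of it and knockdown SPCs 1163, or 534 TPM (interval 520 to 548) and 364 TPM (interval 343 to 386). The knockdown level was lower, and the intervals did not overlap. The ratio of knockdown to control was 0.682 (interval 0.640 to 0.727), a log2 fold change of -0.55. The limit for a reduced call is a ratio of 0.667, so miR-320-3p fell just short of it and its interval spanned it.

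miR-484, the other miRNA of this class, was read 3070 times in control SPCs and 631 times in knockdown SPCs. These were 292 TPM (interval 282 to 302) and 198 TPM (interval 182 to 214), again lower in the knockdown with no overlap. The ratio was 0.677 (interval 0.620 to 0.738), a log2 fold change of -0.56, which also lay just inside the limit. The pair kept the same proportion, with 0.547 control reads of miR-484 per read of miR-320-3p against 0.543 in knockdown SPCs. The odds ratio between libraries was 0.992 (interval 0.890 to 1.10), a value that does not depend on how the libraries were scaled.

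From the miR-1839 hairpin, miR-1839-5p gave 1459 control reads and 447 knockdown reads. This was 139 TPM (interval 132 to 146) against 140 TPM (interval 127 to 154). The levels overlapped, and the ratio was 1.01 (interval 0.905 to 1.12). The minor arm, miR-1839-3p, was at 5.04 TPM (interval 3.77 to 6.59) from 53 reads in the control and at 9.39 TPM (interval 6.34 to 13.4) from 30 reads in the knockdown. Its ratio was 1.86 (interval 1.15 to 2.97), so the knockdown library was higher by more than counting error, although the interval reached below 1.5.

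The remaining miRNAs lay near the floor. The mirtron arm miR-1224-3p was covered by 8 control reads and 1 knockdown read, and miR-1224-5p by 6 and 1. For miR-1224-3p the ratio was 0.412 with an interval of 0.00928 to 3.07, so neither a loss nor a gain of the mirtron was detectable at this depth. miR-320-5p was covered by 4 control reads and 2 knockdown reads, with a ratio of 1.65 and an interval of 0.149 to 11.5. All 3 were below 1.5 TPM in both libraries and entered no count of calls made with that minimum.

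In the control the order of levels was miR-320-3p, miR-484, miR-1839-5p and miR-1839-3p, each separated from the next by its interval, followed by miR-1224-3p, miR-1224-5p and miR-320-5p, whose intervals overlapped. The first 4 kept this order in the knockdown with intervals apart, and the last 3 overlapped there too. miR-320-3p ranked 90 among all listed miRNAs in control SPCs and 114 after knockdown, and miR-484 moved from 126 to 146. miR-1839-5p moved the other way, from 177 to 165, and miR-1839-3p from 437 to 361. Thus miR-320-3p and miR-484 lost places and both arms of miR-1839 gained places. The ranks of miR-320-5p and the miR-1224 arms, with 1 or 2 knockdown reads each, were not compared, since 1058 miRNAs were detected in control SPCs and 833 after knockdown.

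**Figure D1:**
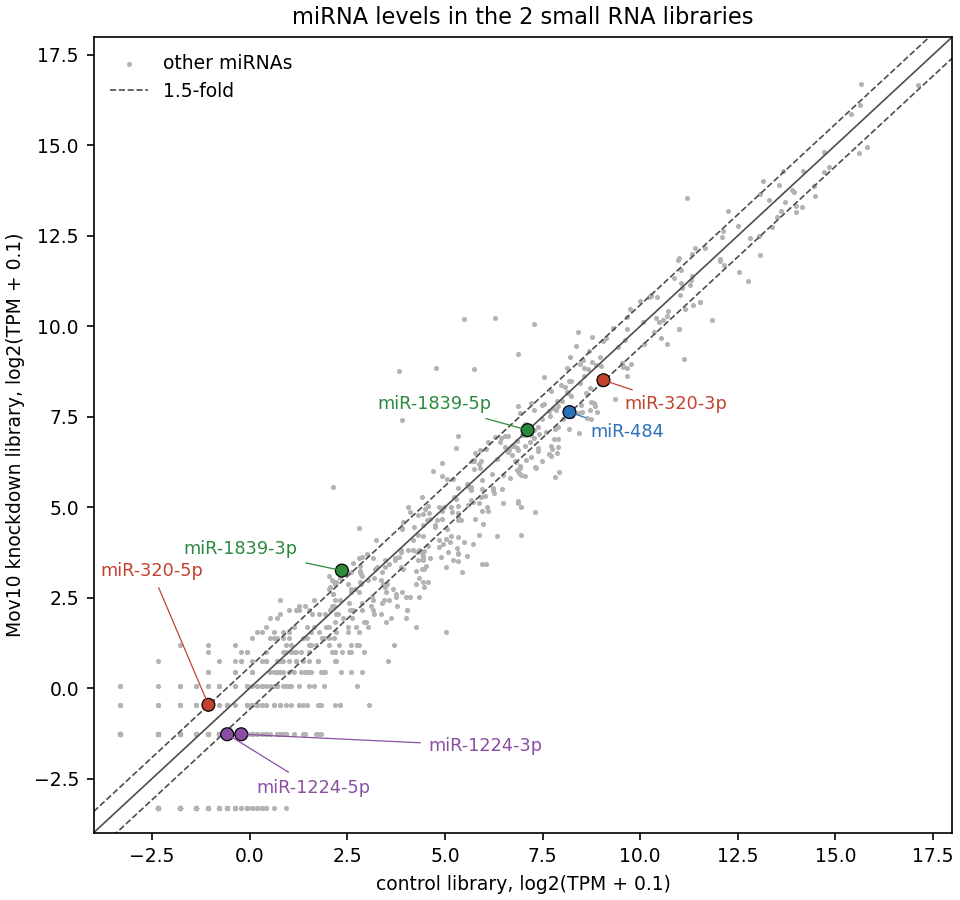
Each point is 1 miRNA, with its level in the control library on the x axis and in the Mov10 knockdown library on the y axis, both as log2(TPM + 0.1); the solid line marks equal levels and the dashed lines 1.5-fold. miR-320-3p and miR-484 lie just inside the lower dashed line, miR-1839-5p lies on the solid line and miR-1839-3p above the upper dashed line.

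Because most miRNAs were lower in the knockdown library, each change was also read against the middle of all miRNAs. Over the 607 miRNAs the median was -0.37 on the log2 scale. Relative to it, miR-320-3p was at -0.19 and miR-484 at -0.20, while miR-1839-5p was at 0.38 and miR-1839-3p at 1.25. Of the 607 miRNAs, 42.7% had a lower fold change than miR-320-3p and 42.2% a lower one than miR-484, so both stood near the middle. With no minimum level the median of all 1096 miRNAs was -0.64, and both then lay above it, miR-320-3p by 0.09 and miR-484 by 0.08. For miR-1839-5p the share was 64.7% and for miR-1839-3p it was 90.9%, toward the upper end.

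The scaling of the libraries moved the median by more than it moved these miRNAs relative to the median. This follows largely by construction, since a scaling moves all miRNAs of a library alike. With TMM scaling the median was -0.11 and with median-ratio scaling -0.04. Relative to the median, miR-320-3p was at -0.22 with TMM and -0.23 with median-ratio scaling, and miR-1839-5p was at 0.34 and 0.33. Under deposited TPM, scaling to the sum of miRNA reads, TMM and median-ratio scaling, miR-320-3p and miR-484 stayed below zero and both arms of miR-1839 above it. All 4 were lower when the read numbers were set side by side without scaling, since the knockdown library total was 0.304 of the control total, and there the positions relative to the median were -0.20 for miR-320-3p and 0.37 for miR-1839-5p.

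**Figure D2:**
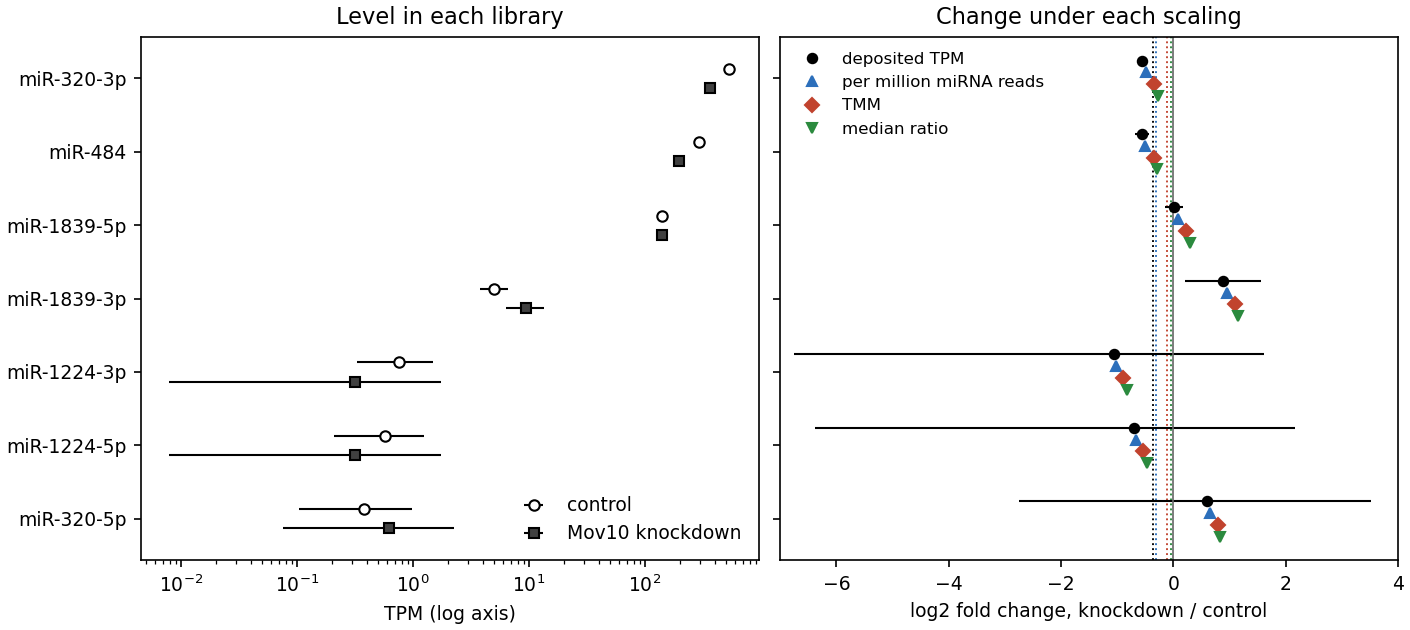
Left, the level of each of the 7 miRNAs in TPM on a log axis in the control (open circles) and Mov10 knockdown (filled squares) library, with 95% Poisson intervals as bars. Right, the log2 fold change of knockdown over control under 4 scalings, with the median of all miRNAs above 1.5 TPM under each as a dotted line and the 95% counting interval of the TPM ratio as a bar; miR-320-3p and miR-484 lie left of each median and both arms of miR-1839 to the right, and the bars of miR-1839-5p and of the rarest 3 cross zero.

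Ratios between the miRNAs within a library do not depend on scaling, and all 6 pairs of the 4 miRNAs above 1.5 TPM were compared. miR-1839-5p had 0.260 reads per read of miR-320-3p in the control and 0.384 in the knockdown, an odds ratio of 1.48 (interval 1.30 to 1.68). Against miR-484 its odds ratio was 1.49 (interval 1.30 to 1.71). Thus miR-1839-5p shifted against both miR-320-3p and miR-484 beyond counting error, whereas the latter did not shift against each other. miR-1839-3p stood higher still, with an odds ratio of 2.73 (interval 1.68 to 4.38) to miR-320-3p and 2.75 (interval 1.68 to 4.43) to miR-484. In 5 of the 6 pairs the interval excluded 1, the pair of miR-484 and miR-320-3p being the exception. Pairs of other miRNAs were not counted in this way, so whether 5 of 6 is unusual was not tested.

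Together the 7 miRNAs held 10214 reads in the control, 0.106% of miRNA reads (Wilson interval 0.104% to 0.108%). In the knockdown they held 2275 reads, 0.0814% (interval 0.0781% to 0.0848%). The share was lower in the knockdown, with intervals apart. The ratio of knockdown to control share was 0.767. For the median of the 607 miRNAs above 1.5 TPM the fold was 0.776 with deposited TPM, which divides by the library total instead. The lower share was thus close to the change of the middle miRNA. Of the reads on these miRNAs, miR-320-3p held 55.0% of those in control SPCs and 51.1% after knockdown, and miR-1839-5p 14.3% and 19.6%.

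The arms of each hairpin were then compared, since a strand can change without the hairpin. For miR-320, the 5p arm held 0.0712% of 5618 reads in the control (exact interval 0.0194% to 0.182%) and 0.172% of 1165 reads in the knockdown (interval 0.0208% to 0.619%). Nearly every read thus came from the 3p arm in both libraries, and no shift was detectable. Of 206 hairpins with both arms listed and at least 20 reads in each library, only 14 had a more one-sided arm use in the control than miR-320, and the median share of the major arm was 96.6%.

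For miR-1839, the 5p arm held 96.5% of 1512 reads in the control (interval 95.4% to 97.4%). It held 93.7% of 477 reads in the knockdown (interval 91.1% to 95.7%). The odds ratio of 3p to 5p reads was 1.85 (interval 1.12 to 2.98), so the minor arm gained share by more than counting error. The share moved by -2.78 percentage points, and 65 of the 206 hairpins moved by more in either direction, so the shift of miR-1839 was not unusual among them. miR-1224 had 14 control reads and 2 knockdown reads on both arms together, too few for a preference to be detectable.

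The RefSeq sequence table used here, on build GRCm38.p6, matched 4 of the 7 mature miRNAs by name. They are shown because the seed (bases 2 to 8, in capitals) decides which targets a miRNA can pair with.
miR-484: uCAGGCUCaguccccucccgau
miR-1839-5p: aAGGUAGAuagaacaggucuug
miR-1224-5p: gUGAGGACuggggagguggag
miR-1224-3p: cCCCACCUcuucucuccucag

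The 4 seeds differ from each other, and none of the other miRNAs among the 908 listed ones with a sequence has the same bases 2 to 8. None of the other miRNAs among these 908 contains or lies within 1 of the 4 sequences. Against those within 2 bases of the same length, each of the 4 had at least 5 mismatches. These were counted with the 5′ ends aligned or the other miRNA shifted by 1 base. A shorter match over bases 2 to 7, looked for after the values were seen, joins miR-1839-5p to miR-196a-5p and miR-196b-5p, and miR-484 to miR-1191b-5p.
miR-1839-5p: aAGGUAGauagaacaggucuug
miR-196a-5p: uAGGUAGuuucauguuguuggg

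In capitals are bases 2 to 7, which are the same in both, while base 8 differs. miR-196a-5p was at 30.04 TPM in control SPCs and 74.5 TPM after knockdown, and miR-196b-5p had 8 reads and 1 read. miR-1191b-5p was at 4.66 TPM and 4.07 TPM. Of these, miR-196a-5p was higher in the knockdown while miR-1839-5p was level, and whether miRNAs with such a match changed alike was not tested.

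The hairpins with an entry in this table, Mir1224, Mir1839 and Mir484, are laid out differently in the genome. Mir1224 lies at chr16:20604452-20604536 on the plus strand and covers exactly 1 intron of Vwa5b2, with an exon ending at 20604451 and the next starting at 20604537. Only 16 of the 1005 hairpins in the RefSeq table (1.59%) fill an annotated intron in this way. The first arm begins with the GU of the splice donor and the second ends with the AG of the acceptor, in capitals below.
miR-1224-5p: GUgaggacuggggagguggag
miR-1224-3p: ccccaccucuucucuccucAG

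Of all hairpins, 30 (2.99%) begin with GU and end with AG. The position of Mir1224 is that of a mirtron. Its hairpin folded to -42.8 kcal/mol over 85 bases by RNAfold, and 84.6% of hairpins were less stable per base.

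Mir1839 lies at chr7:81529916-81529988 on the plus strand, and GENCODE annotates a small Cajal body RNA (scaRNA) of 127 bases at chr7:81529855-81529981. The hairpin shares 66 bases with the scaRNA and runs 7 bases past its end, and miR-1839-5p takes bases 65 to 86 of the scaRNA. Only 14 of the 1005 hairpins (1.39%) overlap a snoRNA or scaRNA on the same strand. The locus lies within the long noncoding RNA gene 2900076A07Rik, in an exon of 1 transcript and an intron of others. The last 30 bases of the scaRNA are shown with the ACA that stands 3 bases before the end, the mark of the H/ACA class.
scaRNA at Mir1839: aattcaagacctacttatctaccaACAgcc

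This ACA (searched as ACANNN at the 3′ end of the annotated strand) is present in 19.3% of 1558 annotated snoRNA and scaRNA genes and at the end of 1.59% of miRNA hairpins. The hairpin folded to -22 kcal/mol over 73 bases, and 11.7% of hairpins were less stable per base. miR-1839 was thus among the weaker hairpins of the genome by this measure, and Mir1224 among the stronger.

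Mir484 lies at chr16:14159626-14159692 on the plus strand, and miR-484 starts 4 bases into it. The protein-coding gene Marf1 runs on the other strand, with the nearest transcript starting at 14159267, 359 bp before the hairpin, and an exon of another transcript overlapping the hairpin by 19 bases. Nde1 starts 3583 bp downstream on the same strand as the hairpin. No annotated protein-coding transcript covers the hairpin on its own strand, and its fold of -24.6 kcal/mol over 67 bases was more stable per base than 33.9% of hairpins.

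**Figure D3:**
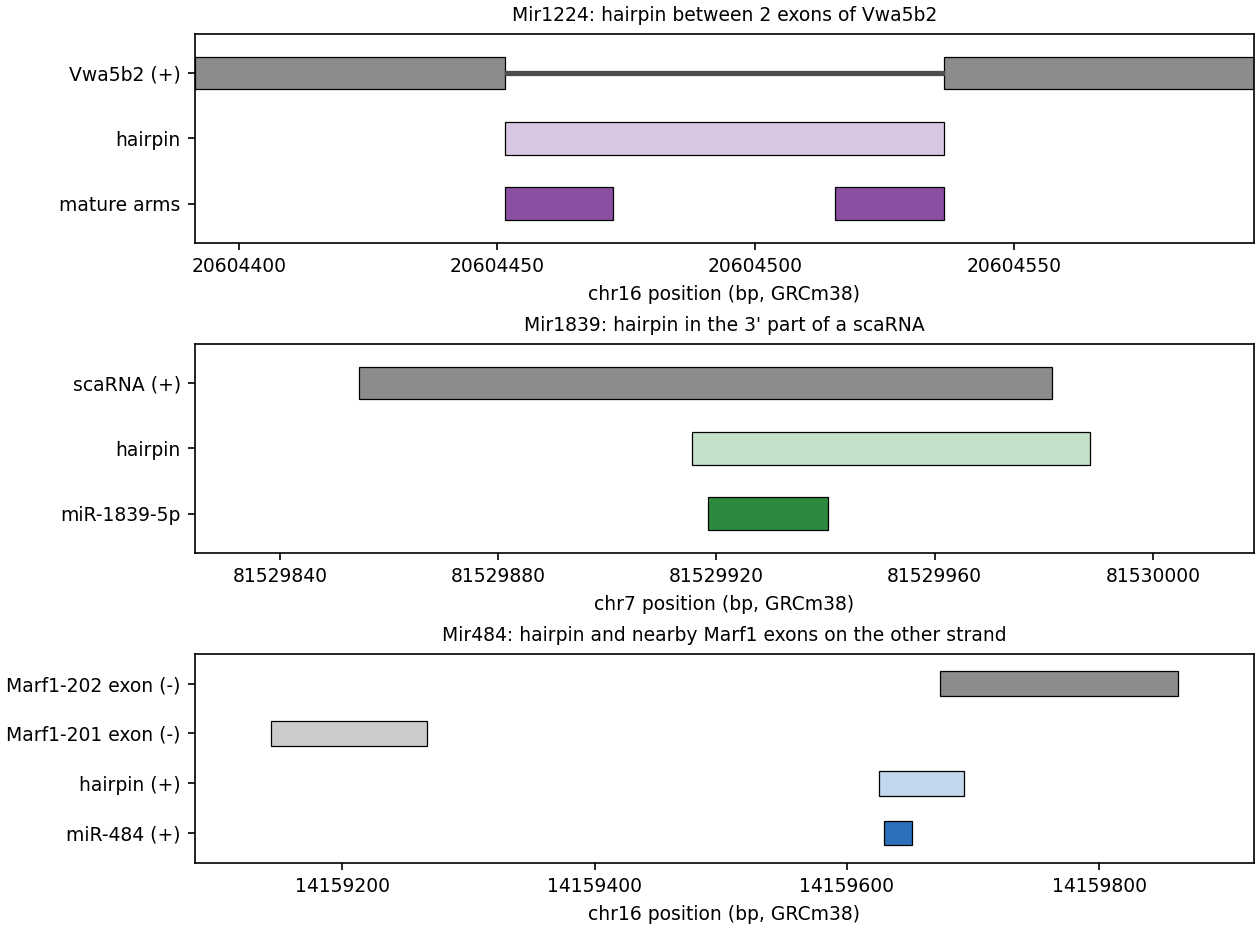
Maps to scale of Mir1224, Mir1839 and Mir484 on GRCm38, with position in bp on each x axis, exons and the scaRNA in grey, hairpins in pale colour and mature miRNAs in dark colour. The Mir1224 hairpin fills the intron between 2 Vwa5b2 exons, the Mir1839 hairpin begins 61 bases into the scaRNA, and the Mir484 hairpin overlaps a Marf1 exon on the other strand by 19 bases.

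The miRNAs nearest in level over the 2 libraries were found by distance in log2(TPM + 0.1). For miR-320-3p they were miR-295-3p, at 511 TPM and 368 TPM in the control and knockdown, and miR-126a-5p. For miR-484 they were miR-96-5p, at 289 TPM and 189 TPM, and miR-20a-5p. These are miRNAs from primary transcripts that Drosha cuts, so the levels of the capped class were also found outside it. miR-1839-5p was nearest to miR-344d-3p, at 129 TPM and 141 TPM, and to miR-195a-3p, and miR-1839-3p was nearest to miR-455-5p and miR-709. With only 2 libraries, closeness says nothing beyond similar levels.

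A fixed list of other miRNAs described as noncanonical gave 17 listed miRNAs from the miR-344, miR-664, miR-702, miR-877, miR-1291, miR-1981 and miR-3535 families, of which 12 passed 1.5 TPM. In this list 2 were reduced, 2 were raised and 8 stayed within 1.5-fold, beside 41.5% reduced and 15.8% raised of all 607, with a median log2 fold change of 0.13 against -0.37 for all 607. Its median stood above that of all miRNAs by 0.49 with deposited TPM, 0.46 with TMM and 0.44 with median-ratio scaling. With unscaled reads it stood above by 0.51, although both medians were below zero, at -1.57 and -2.07. Such distances are nearly fixed by construction, since a scaling moves all miRNAs alike. With TMM 3 of 13 were raised and with median-ratio scaling 3 of 12, beside 23.5% and 25.4% of all miRNAs. The mirtron arm miR-877-3p gave 155 control reads and 20 knockdown reads, with a log2 fold change of -1.22, while its partner miR-877-5p was at -0.52. From the snoRNA-derived miR-664, the 5p arm was at -0.98 and the 3p arm at 0.07. The differences between the arms of these hairpins were not tested.

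The raised miRNAs of the list were miR-3535, from 155 TPM to 1066 TPM, and miR-344-3p, with a log2 fold change of 0.94. Looked at after the values were seen, miR-3535 was 1 of 53 miRNAs above 1.5 TPM with no arm in their name, of which 41.5% were raised and 24.5% reduced, against 13.4% and 43.1% of the 554 with an arm. miR-484 is named without an arm too and was lower in the knockdown. Both miR-1981 arms lay between 0.13 and 0.29, miR-344b-3p, miR-344c-3p and miR-344d-3p between 0.12 and 0.32, and miR-702-3p was at -0.27. Values in this list therefore lay on both sides of zero, as those of miR-484 and miR-1839-3p did.

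Levels of miRNAs typical of particular cell types were read beside these results, since in bulk RNA fewer cells of a type and less RNA per cell cannot be told apart. The miR-290 to miR-295 cluster of pluripotent and germline stem cells summed to 2154 TPM in control SPCs and 1330 TPM after knockdown, and 10 of its 16 miRNAs above 1.5 TPM were reduced and none raised, beside 41.5% and 15.8% of all 607; its most abundant was miR-292a-5p, at 753 TPM and 476 TPM. The miR-143, miR-145, miR-199 and miR-214 list of fibroblasts summed to 27675 TPM and 32318 TPM, with 0 of 10 reduced and 1 raised beside the same shares, led by miR-143-3p at 18362 TPM and 20113 TPM. So the stem cell list was lower in the knockdown library, in the direction of miR-320-3p and miR-484, and the fibroblast list was not. Relative to all miRNAs the median of the stem cell list was at -0.37 with deposited TPM, -0.40 with TMM and -0.42 with median-ratio scaling. That of the fibroblast list was at 0.51, 0.47 and 0.46. These distances are nearly fixed by construction, since a scaling moves all miRNAs alike. In the stem cell list 7 were reduced under TMM and 6 under median-ratio scaling, beside 32.6% and 29.3% of all miRNAs. In the fibroblast list 4 of 10 were raised under TMM and under median-ratio scaling, beside 23.5% and 25.4%. Unscaled reads were lower in the knockdown for all miRNAs above 1.5 TPM of both lists.

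The blood list of miR-142, miR-150, miR-223 and miR-451 summed to 195 TPM in the control and 38.2 TPM in the knockdown, with 3 of 4 reduced beside 41.5% of all miRNAs. The 3 were all miR-142 miRNAs, led by miR-142a-5p at 158 TPM and 28.8 TPM, while miR-150-5p, the other one above 1.5 TPM, was at -0.34 on the log2 scale. Below that level, miR-451a had 11 control reads and 1 knockdown read, miR-223-3p had 11 and 3, and miR-223-5p had 1 and 1. The muscle list, in which miR-1a-3p had no entry, summed to 4.09 TPM and 3.76 TPM, led by miR-133a-3p at 2.00 TPM in the control. Of its 2 miRNAs above 1.5 TPM, miR-133a-3p was reduced, with 21 and 3 reads, and miR-206-3p raised, with 12 and 9 reads, beside 41.5% and 15.8% of all miRNAs, and both ratio intervals included 1. In the knockdown, miR-145b, miR-1a-2-5p, miR-1b-5p and miR-133b-3p were at 0 reads, against 2, 7, 2 and 1 in the control. Each of their ratio intervals included 1, so no loss was detectable. The part of such shifts in the levels of miR-320, miR-484, miR-1839 and miR-1224 was not tested.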

How the data were processed

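Small RNA from 1 control and 1 Mov10 knockdown SPC library was sequenced by the authors, trimmed and mapped without mismatch to miRBase. The deposited files give a read count and a TPM per mature miRNA, and TPM was scaled by the authors to library totals of 10518277 and 3194363.

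A miRNA was called reduced or raised past 1.5-fold on TPM + 0.1 with over 1.5 TPM in the higher library. Intervals at 95% were computed with scipy 1.17.1, TMM factors with edgeR 4.0.16 and folds with RNAfold 2.7.2. The intervals of the TPM ratio were tested on simulated Poisson counts, the model they assume, so variation between libraries was not covered. Named were all rows of the 4 stems, the 2 miRNAs nearest each, those with the same seed, a list of other noncanonical miRNAs and cell type lists. Members and lists were chosen with earlier results of these data known. Alternatives varied the minimum, fold, pseudocount, scaling, denominators and ratios. RNA-seq and CLIP samples were not used here.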

Additional observations from a re-analysis of the deposited data

How the results depend on the processing

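Of 80 recomputed values, 58 stayed within their interval or within 1.5 times the main count. This tally says little about robustness. The intervals of miR-320-5p and both miR-1224 arms were wide enough to hold every setting. Among them, miR-320-5p went from 0.60 to -0.73 on the log2 scale with 1 common total and still counted as within. The recomputed arm shares and pair ratios were nearly fixed by construction. No miRNA of the 7 was reduced, except 2 with no minimum and 4 with 1 common total for both libraries, where 51.2% and 96.6% of all miRNAs were reduced. The count raised was 1. It became 0 with a minimum of 10 TPM, a fold of 2 or 1 common total. In these settings 13.5%, 6.59% and 1.72% of all miRNAs were raised. With no minimum the count was 2, where 17% of all miRNAs were raised. The log2 fold change of miR-320-3p was -0.33 with TMM, -0.27 with median-ratio scaling and -2.27 with 1 common total. For miR-484 these were -0.34, -0.28 and -2.28, and for miR-1839-5p 0.23, 0.29 and -1.70. miR-1839-3p reversed to -0.80 with 1 common total, which by construction keeps the difference in depth.

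The share of reads became 0.0971% in the control and 0.0712% in the knockdown over the library totals, 0.234% and 0.185% without the 10 miRNAs with the most reads in the denominator, and 0.0478% and 0.0398% without miR-320-3p. It was lower in the knockdown each time. With at least 20 reads per hairpin, miR-1224 gave no arm share. Pair ratios from TPM + 0.1 stayed within their intervals.

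Of all calls, 72.4% were reductions with deposited TPM, 58.1% with TMM and 53.6% with median-ratio scaling. The main counts were 252 reduced and 96 raised of 607 miRNAs. They were 561 and 186 of 1096 with no minimum and 157 and 53 of 393 with a minimum of 10 TPM. A fold of 2 gave 161 and 40 of 607, and 1 common total gave 561 and 10 of 581. The counts were 201 and 145 of 616 with TMM and 173 and 150 of 591 with median-ratio scaling. No paired analysis was possible because a single library stands for each group. Depth limits the 3 rarest miRNAs, where single reads decide the ratio, and miR-1839-3p rests on 30 reads in the knockdown.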
